A study of Rattus norvegicus with 6 samples.

Results

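The miRNAs described here are both arms of 3 rat precursors linked to inflammation, miR-146a, miR-146b and miR-155. These 6 mature miRNAs (rno-miR-146a-5p, rno-miR-146a-3p, rno-miR-146b-5p, rno-miR-146b-3p, rno-miR-155-5p and rno-miR-155-3p, written below without the rat prefix rno-) were picked by name from the 763 in the deposited table, of which 598 had at least 1 read in some library. Small RNA was sequenced from plasma exosomes, the small membrane vesicles that cells release into blood, and the study asked which exosomal miRNAs differ late after remote ischemic pre-conditioning (RIPC), a procedure in which brief limb ischemia protects the distant heart. All rats were male Sprague-Dawley rats aged 7 to 8 weeks. R-exo (3 libraries) came from rats that, under anesthesia, had 4 cycles of occlusion of both hind limbs with elastic bands, each of 5 min ischemia and 5 min reperfusion, and were bled 48 h later. C-exo (3 libraries) came from control rats without RIPC, bled at the same 48 h. The labels do not say whether control rats were anesthetized at the time of the procedure or whether a library came from 1 rat or from a pool, so a p-value below measures only the spread between these libraries, which may in part be technical.

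NF-kB is the transcription factor that switches on inflammatory genes after Toll-like receptor or cytokine signals, and the genes of miR-146a and miR-155 are among its known targets. miR-146a and miR-146b repress the adaptors TRAF6 and IRAK1 and so close a negative feedback loop on the same pathway, whereas miR-155 represses brakes such as SOCS1 and the phosphatase SHIP1 and is best known from activated macrophages and lymphocytes. From each hairpin precursor the processing enzymes cut a 5p and a 3p arm, 1 of which is usually loaded into the silencing complex while the other is mostly degraded, and a loaded miRNA finds its targets mainly through its seed, bases 2 to 8.

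The mature sequences are shown because the seeds decide which of the 6 can share targets and because the near-identity of the miR-146 arms bears on how their reads were counted. They were taken from RefSeq (build GRCr8), are written 5′ to 3′ and have the seed in capitals.
miR-146a-5p: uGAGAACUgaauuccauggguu
miR-146b-5p: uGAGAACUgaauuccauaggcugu
miR-155-5p: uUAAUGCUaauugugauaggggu
miR-146a-3p: aCCUGUGAaguucaguucuuu
miR-146b-3p: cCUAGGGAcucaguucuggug
miR-155-3p: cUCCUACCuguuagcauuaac
miR-146a-5p and miR-146b-5p had the same seed, GAGAACU, whose complement in a target is AGUUCUC. Among the 686 of the 763 miRNAs in the table for which RefSeq gave a mature sequence, no other miRNA had that seed. The seed of miR-155-5p, UAAUGCU (complement AGCAUUA), and the seed of each 3p arm were also found in no other miRNA of these 686. miR-146a-5p (22 bases) and miR-146b-5p (24 bases) were identical over the first 17 bases and differed at 2 of the 22 positions compared, G18A and U21C, each token giving the base of miR-146a-5p, its position from the 5′ end (starting at 1) and the base of miR-146b-5p. miR-146a-3p and miR-146b-3p, set side by side from their first base without gaps, differed at 15 of 21 positions. How the authors' counting assigned reads that match several miRNAs is not given in the sources used here, so reads too short to reach position 18 could have gone to either miR-146 5p arm, and the split between these arms is uncertain to that extent.

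The precursors are shown to place both arms. In each RefSeq hairpin below the 5p arm is the first run of capitals and the 3p arm the second.
Mir146a: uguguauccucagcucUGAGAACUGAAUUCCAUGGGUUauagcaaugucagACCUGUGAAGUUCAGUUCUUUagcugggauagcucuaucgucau
Mir146b: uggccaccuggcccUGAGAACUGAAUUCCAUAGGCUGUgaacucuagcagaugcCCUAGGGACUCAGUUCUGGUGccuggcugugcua
Mir155: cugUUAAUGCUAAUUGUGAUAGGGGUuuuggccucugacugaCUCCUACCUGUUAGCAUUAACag
In GRCr8 Mir146a lies at chr10:28349996-28350090 on the minus strand, within the span of the gene LOC134480673. Mir146b lies at chr1:255144860-255144947 on the plus strand, within the span of the gene C1h10orf95. Mir155 lies at chr11:37261114-37261178 on the plus strand, within the span of Mir155hg (BIC), its long non-coding host gene. The gene table gives spans without exons, so exon or intron position is not stated. The submitters' processing notes name the older build rn6, and the deposited counts carry no coordinates.

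The 3 precursors were read out almost wholly from their 5p arms, and their 5p arms differed widely in level. Over the 6 libraries miR-146a-5p had 389950 reads, miR-146b-5p 136806 and miR-155-5p 979, whereas miR-146b-3p had 578, miR-146a-3p 179 and miR-155-3p 5. Levels below are in CPM, the reads on a miRNA per 1000000 reads of its library, with library sizes scaled by TMM factors, which correct for differences in library composition. By mean CPM miR-146a-5p ranked 22 of the 763 miRNAs in C-exo and 29 in R-exo, and miR-146b-5p ranked 45 and 42. miR-155-5p ranked 273 and 218, miR-146b-3p 251 and 282, miR-146a-3p 340 and 337, and miR-155-3p 501 and 555. Adaptor ligation differs between sequences, so the order of levels between miRNAs is an order of reads and not of molecules.

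**Figure D1:**
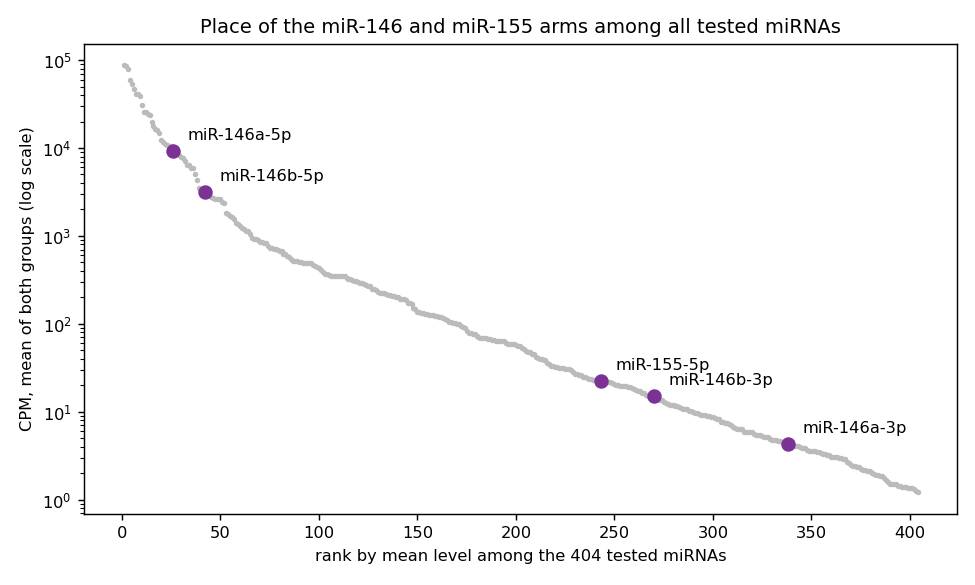
Each grey point is 1 of the 404 miRNAs that passed the filter on low counts, placed by its rank (horizontal axis) and its CPM averaged over both groups (vertical axis, log scale), and the purple points are the miR-146 and miR-155 arms that passed. The miR-146 5p arms lie near the abundant end, and miR-155-5p and both miR-146 3p arms lie beyond the middle of the order, while miR-155-3p was too rare to be tested.

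The libraries held between 5484209 and 7531737 miRNA reads, so that 3 reads, the smallest amount taken as measurable, stood for 0.369 to 0.672 CPM. No pair of libraries was near-identical. C-exo replicate 3 stood apart within its group, so its label and its preparation are in doubt, and variation between rats or pools is also possible. Which of these applies, if any, was not tested, and the doubt bears on every C-exo mean, fold change and count of calls below. For 331 of the 404 tested miRNAs (81.9%) its log2 CPM lay closer to the mean of R-exo than to that of the remaining C-exo libraries, against 25.2% for C-exo replicate 1 and 30.7% for C-exo replicate 2. For the other 73 it did not, among them miR-125b-5p, at 3551 CPM against 1133 to 1688 CPM in R-exo, and miR-203a-3p, at 2143 CPM against 3121 to 4483 CPM in R-exo. All 5 tested arms were among the 331, so each comparison of the arms between the groups is also given without that library. It was singled out after its values were seen, those of these arms among them. Leaving out a C-exo library that lies near R-exo tends to widen the gap between the groups. The p-values and calls of that fit are therefore a description and not a test. Among blood cell markers, the summed level of 5 leukocyte miRNAs (miR-142-3p, miR-142-5p, miR-150-5p, miR-223-3p and miR-342-3p, none of them at 0, with miR-142-5p holding most of the sum in 5 of 6 libraries) was 5493, 3733 and 21887 CPM in C-exo replicates 1, 2 and 3 and 12278, 27505 and 11794 CPM in R-exo replicates 1, 2 and 3. The median log2 fold change with all libraries and without C-exo replicate 3 was 0.72 and 0.96 for 4 red cell miRNAs, -0.65 and -0.38 for the liver miRNA miR-122-5p, -0.33 and 1.34 for 3 striated muscle miRNAs and 0.89 and 1.96 for the 2 arms of the endothelial miR-126a. The red cell sum, mostly miR-486, went the other way from its median, with 198074, 92396 and 69273 CPM in C-exo and 44536 to 74959 CPM in R-exo.

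The groups were compared by edgeR's quasi-likelihood test across all 404 tested miRNAs, with Benjamini-Hochberg adjustment over the 404. Of the 6 arms, 5 passed the filter on low counts and miR-155-3p did not. By the criterion of the study, at least a doubling or halving at an unadjusted p under 0.05, 0 of the 5 arms were called, where 9.41% of all tested miRNAs were called. At an adjusted p under 0.05 the same test called 0 of the 5 arms and 0% of all tested miRNAs, and at an unadjusted p under 0.05 it called 0 of the 5 arms and 38 of the 404. With limma-voom 1 of the 5 arms, miR-155-5p, met the criterion of the study, and with DESeq2 0 did, where each tool called 12.1% of all tested miRNAs, and neither gave an arm an adjusted p under 0.05. The median log2 fold change of the 5 arms was 0.056, and that of all tested miRNAs was -0.046. The groups were fully separated, every library of one above every library of the other, for 1 of the 5 arms, miR-146b-3p (lower in R-exo), where 12.9% of all tested miRNAs were separated, 4.95% with R-exo higher and 7.92% with R-exo lower. Which arm separated depended on the scaling: with library size as the only scaling miR-146b-3p overlapped and miR-155-5p separated (higher in R-exo), where 13.6% of all tested miRNAs separated, 8.66% with R-exo higher.

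miR-146a-5p, the most abundant of the arms and the best known feedback inhibitor of Toll-like receptor signalling, had overlapping levels in the groups. Its CPM was 9236, 8328 and 9613 in C-exo replicates 1, 2 and 3 and 12825, 8192 and 7238 in R-exo replicates 1, 2 and 3. R-exo replicate 1 was the highest library and the other R-exo libraries were the lowest, so the R-exo values enclosed the C-exo values. The mean was 9059 ± 661 CPM in C-exo and 9419 ± 2988 CPM in R-exo (SD, n = 3 each). edgeR gave a log2 fold change of 0.056 with a standard error of 0.40 (adjusted p = 0.96). Its 95% interval ran from -0.85 to 0.96, or from 0.554 to 1.95 times the C-exo level, so changes within that range were not excluded. Counting error was small beside the spread between libraries: the 41212 reads of C-exo replicate 1 were 0.751% of its library, and its Wilson 95% interval ran from 7443 to 7587 CPM before TMM scaling. The edgeR estimate became 0.11 without C-exo replicate 3 (adjusted p = 0.84) and turned to -0.17 without R-exo replicate 1 (adjusted p = 0.87) and to -0.044 when TMM factors left out the 10 most abundant miRNAs.

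miR-146b-5p, which shares the seed of miR-146a-5p, read 2290, 2241 and 4447 CPM in C-exo replicates 1, 2 and 3, while R-exo replicates 1, 2 and 3 read 3977, 2810 and 3422 CPM. C-exo replicates 1 and 2 were the lowest of the 6 and C-exo replicate 3 was the highest, so the groups overlapped. R-exo averaged 3403 ± 583 CPM and C-exo 2993 ± 1259 CPM (SD, n = 3 each), and edgeR put the log2 fold change at 0.19 with a standard error of 0.45 (95% interval -0.82 to 1.19, adjusted p = 0.85). Leaving out C-exo replicate 3 moved this to 0.60 (95% interval -0.23 to 1.42, edgeR adjusted p = 0.23).

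Together the miR-146 5p arms, read as 1 seed family, held 0.938%, 1.17% and 1.31% of the miRNA reads in C-exo replicates 1, 2 and 3 and 1.94%, 1.10% and 1.09% in R-exo replicates 1, 2 and 3. R-exo replicate 1 was the highest, and the other R-exo libraries lay within the C-exo range. Within the family miR-146a-5p supplied 80.1%, 78.8% and 68.4% of the reads in C-exo and 76.3%, 74.5% and 67.9% in R-exo. A ratio of miRNAs within a library needs no scaling between libraries. miR-146a-5p had 4.03, 3.72 and 2.16 reads per read of miR-146b-5p in C-exo and 3.23, 2.91 and 2.12 in R-exo. The mean log2 ratio differed by -0.23 between R-exo and C-exo, within the spread of the libraries (SD 0.49 in C-exo and 0.32 in R-exo, n = 3 each; exact two-sided permutation p = 0.5, where 0.1 is the smallest p that 3 against 3 allows). Without C-exo replicate 3 the difference was -0.51.

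miR-155-5p, the functional arm of the miR-155 precursor, was the arm with the highest log2 fold change. Its read counts were 48, 47 and 192 in C-exo replicates 1, 2 and 3 and 220, 195 and 277 in R-exo replicates 1, 2 and 3. In CPM these were 10.8, 6.02 and 27.3 in C-exo and 27.1, 28.0 and 36.5 in R-exo. C-exo replicate 3 lay just above R-exo replicate 1 and just below R-exo replicate 2, and the other C-exo libraries lay below all R-exo libraries. Scaled by library size only, C-exo replicate 3 lay below all R-exo libraries too, at 25.5 CPM against 27.9 CPM in the lowest of them. R-exo averaged 30.5 ± 5.21 CPM and C-exo 14.7 ± 11.2 CPM (SD, n = 3 each). The log2 fold change by edgeR was 1.05 with a standard error of 0.59 (95% interval -0.26 to 2.37, unadjusted p = 0.10, adjusted p = 0.50), and an exact two-sided permutation test of the libraries gave 0.2. Among the 404 tested miRNAs it ranked 34 by log2 fold change and 84 by p. The gap among C-exo libraries was larger than counting error, with Wilson 95% intervals of 6.60 to 11.6, 5.03 to 8.89 and 22.1 to 29.4 CPM before TMM scaling in C-exo replicates 1, 2 and 3.

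By the adjusted p, miR-155-5p was called in 1 of the settings run, the one without C-exo replicate 3. By the criterion of the study miR-155-5p was also called with all libraries under limma-voom (log2 fold change 1.32, unadjusted p = 0.048). With the replicate number as a block edgeR called it too (log2 fold change 1.31, unadjusted p = 0.043), where 38 of the 404 tested miRNAs were called. Same-numbered libraries come from different rats. Without C-exo replicate 3 edgeR estimated a log2 fold change of 1.89 with a standard error of 0.49 (95% interval 0.84 to 2.93, adjusted p = 0.014). In that fit 31.3% of the 422 tested miRNAs had an adjusted p under 0.05 and miR-155-5p ranked 50 by p, so miR-155-5p, the only one of the 5 arms called there, was 1 of 132. By the criterion of the study 2 arms, miR-155-5p and miR-146b-3p, were called in that fit, where 43.1% of all tested miRNAs were. With each of the other libraries left out the log2 fold change lay between 0.73 and 1.22, and the adjusted p between 0.60 and 0.83. The summed leukocyte level given above was lowest in C-exo replicates 1 and 2, as miR-155-5p was. This order came from miR-142-5p, which was lowest there at 2444 and 2321 CPM against 18749 CPM in C-exo replicate 3 and 8891 to 24668 CPM in R-exo. The other 4 leukocyte miRNAs summed to 3049, 1412 and 3138 CPM in C-exo replicates 1, 2 and 3, against 3387, 2837 and 2552 CPM in R-exo replicates 1, 2 and 3, so that C-exo replicate 1 lay above 2 of the R-exo libraries. Of the 5 leukocyte miRNAs 0 met the criterion of the study (9.41% of all tested miRNAs did), and their median log2 fold change was 0.35 against -0.046 for all. That median was 0.58 without C-exo replicate 3, against 0.013 for all, and 1 of the 5, miR-142-5p, had an adjusted p under 0.05 (edgeR). The endothelial miR-126a arms were also lowest in C-exo replicates 1 and 2, with a sum of 4722, 7336 and 16771 CPM in C-exo (replicates 1, 2 and 3) and from 20585 to 30331 CPM in R-exo. The part of either list in the miR-155-5p values was not tested, and in plasma exosomes, which come from many cell types, a larger share of vesicles from a cell type and more miRNA per vesicle cannot be told apart.

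**Figure D2:**
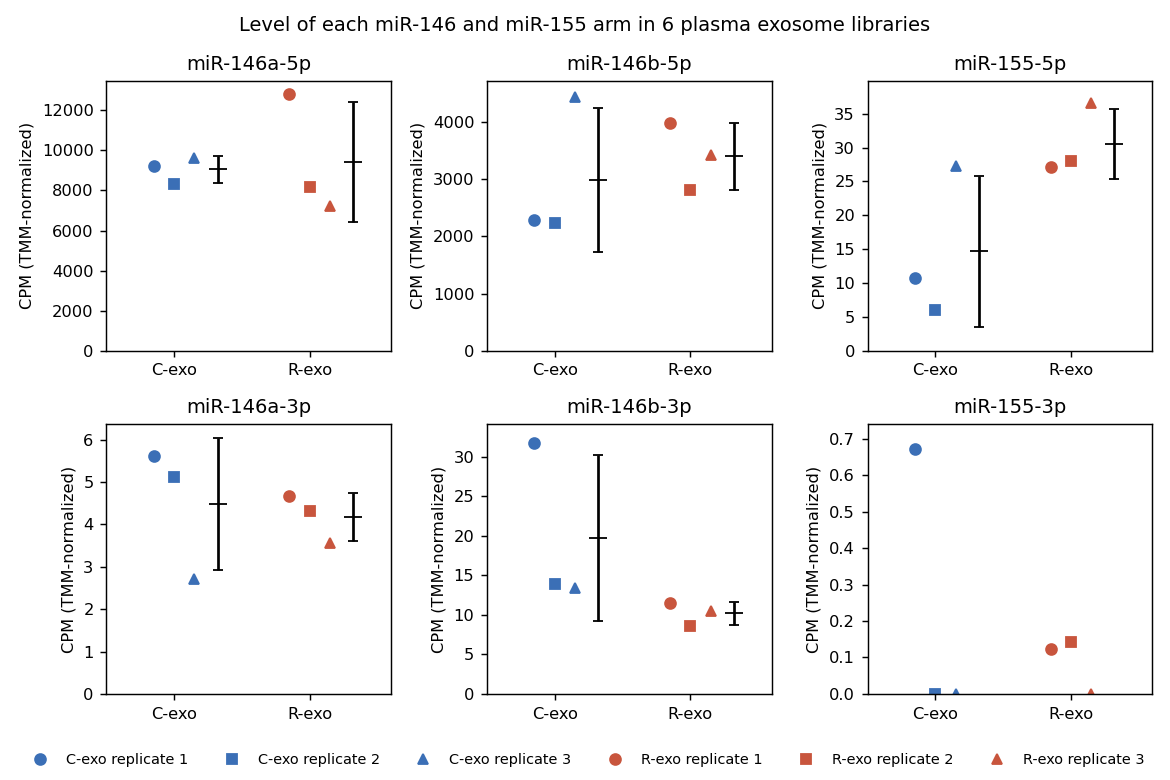
CPM after TMM scaling (vertical axes, each from 0) of the 6 arms in the 3 C-exo libraries (blue) and 3 R-exo libraries (red), with 1 symbol per replicate number and black marks for the mean ± SD; none are drawn for miR-155-3p, which had 5 reads in all. For miR-155-5p and miR-146b-5p C-exo replicate 3 (blue triangle) sits with or above the R-exo libraries, at 27.3 and 4447 CPM, while for miR-146b-3p all R-exo libraries sit below all C-exo libraries, which holds with TMM but not with library size as the only scaling.

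Set against miR-146a-5p in the same library, miR-155-5p was again lowest in C-exo replicates 1 and 2. There were 859, 1384 and 352 reads of miR-146a-5p per read of miR-155-5p in C-exo and 473, 293 and 198 in R-exo. C-exo replicate 3 lay between R-exo replicates 1 and 2. The mean log2 ratio differed by -1.30 between R-exo and C-exo (SD 0.996 in C-exo and 0.63 in R-exo, n = 3 each; exact two-sided permutation p = 0.2). Without C-exo replicate 3 the difference was -1.84, and without C-exo replicate 2 it was -0.86.

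miR-155-3p was at the limit of measurement. It had 3, 0 and 0 reads in C-exo and 1, 1 and 0 in R-exo, and no library exceeded 3 reads, so it did not pass the filter and no fold change is given (without the filter, edgeR gave it an unadjusted p of 0.65). The 5 reads in all libraries against 979 of miR-155-5p made up 0.508% of the reads of the precursor (Wilson 95% interval 0.217% to 1.18%). In C-exo replicate 3, the 0 reads beside 192 of the 5p arm allowed a 3p share of up to 1.96% by the same interval.

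miR-146b-3p, the rarely loaded arm of its precursor, was the only arm whose groups did not overlap after TMM scaling. Its read counts were 142, 109 and 94 in C-exo and 93, 60 and 80 in R-exo, or 31.8, 14.0 and 13.4 CPM in C-exo replicates 1, 2 and 3 against 11.5, 8.61 and 10.6 CPM in R-exo replicates 1, 2 and 3. All R-exo libraries were below all C-exo libraries on this scale, while by library size only R-exo replicate 1 (13.2 CPM) lay above C-exo replicate 3 (12.5 CPM). C-exo replicate 1 was more than 2 times as high as any other after TMM scaling. R-exo averaged 10.2 ± 1.45 CPM and C-exo 19.7 ± 10.5 CPM (SD, n = 3 each). edgeR gave a log2 fold change of -0.94 with a standard error of 0.51 (95% interval -2.09 to 0.20, unadjusted p = 0.095, adjusted p = 0.48), while an exact two-sided permutation test gave 0.1, the smallest p possible here. The edgeR estimate was -0.48 without C-exo replicate 1 (adjusted p = 0.90) and -1.15 without C-exo replicate 3 (unadjusted p = 0.031, adjusted p = 0.078).

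miR-146a-3p, the corresponding arm of miR-146a, had 25, 40 and 19 reads in C-exo and 38, 30 and 27 in R-exo. Its CPM was 5.60, 5.12 and 2.70 in C-exo and 4.68, 4.31 and 3.56 in R-exo, and the R-exo libraries all lay within the C-exo range. R-exo averaged 4.18 ± 0.569 CPM and C-exo 4.48 ± 1.55 CPM (SD, n = 3 each), and edgeR put the log2 fold change at -0.092 with a standard error of 0.56 (95% interval -1.35 to 1.16, adjusted p = 0.95). Without C-exo replicate 3 it was -0.35, and it turned positive without C-exo replicate 2 (0.051) and with library size as the only scaling (0.066). At the 19 reads of C-exo replicate 3 the Wilson 95% interval spanned 1.62 to 3.94 CPM before TMM scaling, so single libraries were known only roughly.

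**Figure D3:**
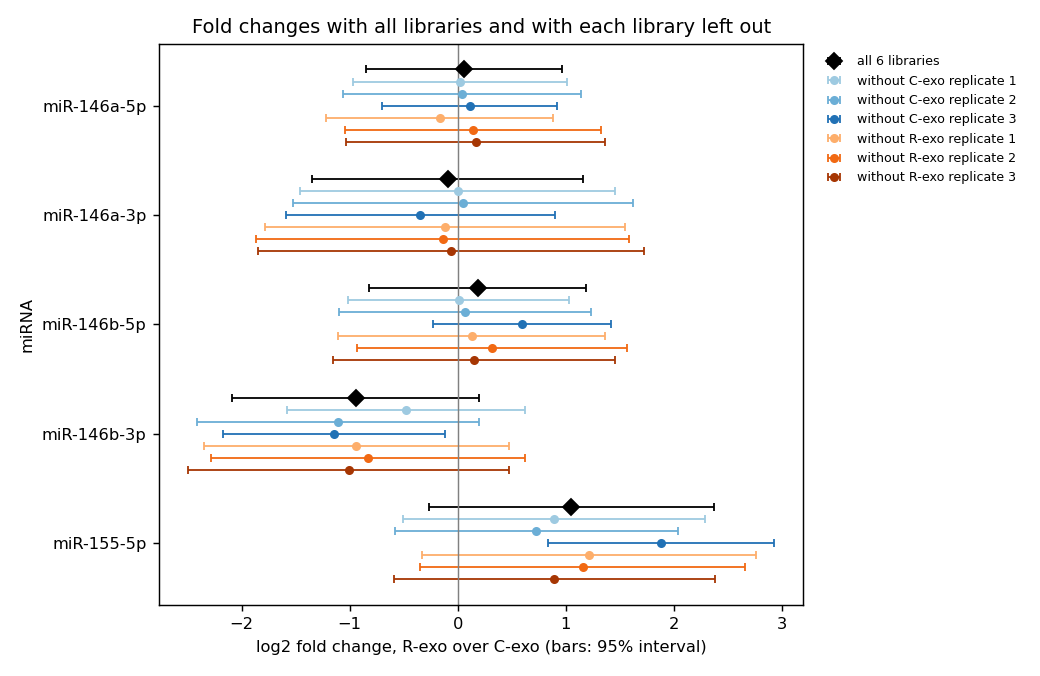
Log2 fold change of R-exo over C-exo with its 95% interval (horizontal axis) for the 5 tested arms, from edgeR's quasi-likelihood fit to all 6 libraries (black diamonds) and to the 5 libraries left when each is dropped in turn (coloured points). The interval holds 0 for each arm with all libraries. With C-exo replicate 3 dropped, the interval lies wholly above 0 for miR-155-5p, at 0.84 to 2.93, and wholly below 0 for miR-146b-3p, at -2.18 to -0.12. That library was singled out by its values, so these intervals are a description.

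The balance of the miR-146b arms was nearly the same in the R-exo libraries and varied among the C-exo libraries. There were 72.0, 161 and 333 reads of miR-146b-5p per read of miR-146b-3p in C-exo replicates 1, 2 and 3 and 347, 326 and 324 in R-exo replicates 1, 2 and 3. C-exo replicate 3 lay with the R-exo libraries, and C-exo replicates 1 and 2 had relatively more of the 3p arm. The 3p arm made up 1.37% of the miR-146b reads in C-exo replicate 1 (Wilson 95% interval 1.16% to 1.61%), 0.619% in C-exo replicate 2 (0.513% to 0.746%) and 0.300% in C-exo replicate 3 (0.245% to 0.367%), against 0.287% to 0.307% in R-exo. On the log2 scale the mean 5p to 3p ratio was 7.29 ± 1.10 in C-exo and 8.37 ± 0.056 in R-exo (SD, n = 3 each), a difference of 1.08 with an exact two-sided permutation p of 0.3. The difference was 1.62 without C-exo replicate 3 and 0.52 without C-exo replicate 1.

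For the miR-146a precursor the R-exo libraries lay within the C-exo range. There were 1648, 1626 and 3557 reads of miR-146a-5p per read of miR-146a-3p in C-exo and 2741, 1902 and 2032 in R-exo, and the mean log2 ratio differed by 0.056 between groups (SD 0.64 in C-exo and 0.28 in R-exo, n = 3 each; exact two-sided permutation p = 1). Without C-exo replicate 3 the difference was 0.42. Over all libraries the 3p arm was 0.0459% of the miR-146a reads (Wilson 95% interval 0.0396% to 0.0531%) and 0.421% of the miR-146b reads (0.388% to 0.456%). As for miR-146b, C-exo replicates 1 and 2 had the lowest miR-146a 5p to 3p ratios. C-exo replicate 3 had the highest, with 19 reads of the 3p arm, whereas for miR-146b R-exo replicate 1 was the highest.

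**Figure D4:**
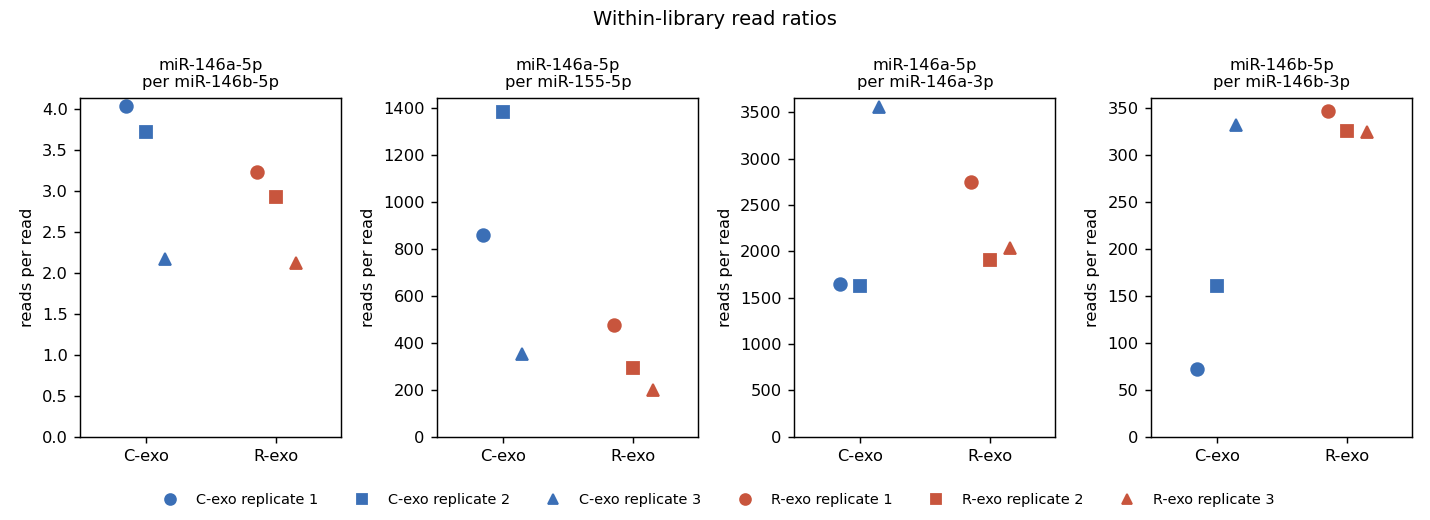
Reads of the first miRNA per read of the second within each library (vertical axes, each from 0), for 4 pairs of arms, with C-exo libraries in blue, R-exo libraries in red and 1 symbol per replicate number. For miR-146b-5p per miR-146b-3p, C-exo replicates 1 and 2 sit at 72.0 and 161 and the other 4 libraries between 324 and 347.

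The pattern over the 6 libraries was compared between miRNAs as the root mean square difference of log2 CPM, each miRNA centred on its own mean, which is a description over 6 libraries. miR-146a-5p was nearest to miR-221-5p (0.09), miR-22-5p (0.19) and miR-218a-5p (0.20), where the median over all tested miRNAs was 0.72. miR-146b-5p was nearest to miR-3559-5p (0.22), miR-10b-3p (0.22) and miR-30e-3p (0.23), with a median of 0.75. miR-155-5p was nearest to let-7c-5p (0.15), miR-20a-5p (0.18) and miR-429 (0.22), with a median of 1.04. let-7c-5p, a member of an abundant family, averaged 5188 CPM in C-exo and 11615 CPM in R-exo, with a log2 fold change of 1.16 beside the 1.05 of miR-155-5p. miR-146b-3p was nearest to miR-505-3p (0.16), miR-3064-5p (0.20) and miR-181a-1-3p (0.23), and miR-146a-3p to miR-24-2-5p (0.20), miR-22-3p (0.22) and miR-185-5p (0.23). None of the 5 tested arms was among the 3 nearest of another. Among the tested arms, miR-146a-5p and miR-146b-5p were the closest pair (0.36), and miR-155-5p and miR-146b-3p the farthest (1.34).

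A list of 12 other miRNAs tied to the inflammatory response, by induction through NF-kB or Toll-like receptors or by their targets, had members on both sides. All 12 were tested, 5 had a log2 fold change above 0, and their median was -0.21 against -0.046 for all tested miRNAs. By the criterion of the study, which called 9.41% of all tested miRNAs, 3 of the 12 were called, 2 higher and 1 lower in R-exo, and 0 had an adjusted p under 0.05 with edgeR's quasi-likelihood test. miR-132-3p, which is induced by CREB and by Toll-like receptor ligands, had the highest log2 fold change, 1.54 with a standard error of 0.64 (edgeR, unadjusted p = 0.039, adjusted p = 0.46). Its C-exo libraries read 2.69, 1.41 and 4.98 CPM and its R-exo libraries 10.8, 10.5 and 5.14 CPM. The other miRNA called higher in R-exo was miR-203a-3p, known for its high expression in skin (log2 fold change 1.19). miR-125b-5p, which targets the mRNA of tumor necrosis factor, had the lowest log2 fold change, -1.09, and was the one called lower. miR-223-3p, in this list and among the leukocyte miRNAs, was not called. Leaving out C-exo replicate 3, the log2 fold change was 2.14 for miR-132-3p, 1.45 for miR-203a-3p and -0.995 for miR-125b-5p, and the median of the 12 was -0.22. miR-125b-5p then fell just short of a halving and was not called, and the lowest of the 12 was miR-147 at -1.39 (edgeR adjusted p = 0.019). In that fit 5 of the 12 had an adjusted p under 0.05, 3 of them higher in R-exo, where 31.3% of all tested miRNAs did.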

How the data were processed

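Small RNA libraries from plasma exosomes (3 C-exo, 3 R-exo) were sequenced on an Illumina HiSeq instrument after adaptor ligation and PCR. The authors deposited raw counts of reads on 763 mature miRNAs per library, not normalized or pooled. Per the labels, bcl2fastq and BWA and the build rn6 were used, without versions or roles; the miRNA database, trimming, mismatch rule and handling of reads matching several miRNAs are not given in the sources used here. Groups and replicate numbers came from the labels, and every column was used.

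The main test used edgeR 4.0.16 under R 4.3.3. filterByExpr by group (minimum count 10, minimum total 15) left 404 miRNAs, then TMM factors were computed and glmQLFit and glmQLFTest were run with condition as the only term. Standard errors came from the fold change and its F statistic. Log2 CPM used a prior count of 2, and log2 ratios added 0.5 to each count. Exact permutation tests were two-sided. Intervals of shares are Wilson 95% intervals; without molecular identifiers they cover counting error only, as does the floor of 3 counts. The procedure was tested on simulated counts.

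The miRNAs and lists were chosen with earlier results of these data known. Named are the 6 arms, the 3 miRNAs nearest in pattern to each tested arm, and from the list of 12 inflammatory-response miRNAs the highest, the lowest and any called. That list, beside miR-132-3p, miR-203a-3p and miR-125b-5p, held miR-9a-5p, miR-21-5p, miR-125a-5p, miR-147, miR-181b-5p, miR-199a-5p, miR-221-3p, miR-222-3p and miR-223-3p. Marker lists of leukocytes, red cells, liver, striated muscle and endothelium were also set.

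Alternatives were RLE, upper quartile, library-size-only and TMM scaling without the 10 most abundant miRNAs, other filters, limma-voom (limma 3.58.1), the exact test of edgeR, DESeq2 1.42.0, each library left out, and the replicate number as a block. Sequences and gene spans came from RefSeq tables (GRCr8). Figures used Python 3.11.15 and matplotlib 3.10.9.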

Additional observations from a re-analysis of the deposited data

How the results depend on the processing

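Of the 10 alternatives with all 6 libraries, none gave a tested arm an adjusted p under 0.05 (edgeR, DESeq2 or limma). The log2 fold change stayed above 0 for miR-155-5p (1.05 to 1.32) and miR-146b-5p (0.14 to 0.36) and below 0 for miR-146b-3p (-1.05 to -0.72). It turned negative for miR-146a-5p with TMM without the 10 most abundant miRNAs (-0.044) and positive for miR-146a-3p with library size only (0.066); the cause was not tested. Scaling to library size only moved the median of all tested miRNAs from -0.046 to 0.10. The unadjusted p of miR-155-5p was 0.048 with limma-voom, and between 0.055 and 0.11 in the other alternatives without a block.

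With each library left out, log2 fold changes ranged from -0.17 to 0.17 for miR-146a-5p (negative without R-exo replicate 1), -0.35 to 0.051 for miR-146a-3p (positive, at 0.051, without C-exo replicate 2), 0.0079 to 0.60 for miR-146b-5p, -1.15 to -0.48 for miR-146b-3p and 0.73 to 1.89 for miR-155-5p. The log2 ratio differences ranged from -0.13 to 0.42 for the miR-146a arms, 0.52 to 1.62 for the miR-146b arms, -0.51 to -0.056 for miR-146a-5p to miR-146b-5p and -1.84 to -0.86 for miR-146a-5p to miR-155-5p.

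Among all miRNAs 38 met the criterion of the study, 63 did without the filter on low counts, and 15 to 182 did with each library left out. There were 15 without C-exo replicate 1, 18 without C-exo replicate 2 and 182 without C-exo replicate 3. Without R-exo replicates 1, 2 and 3 in turn there were 29, 16 and 15. The number with an adjusted p under 0.05 (edgeR) was 0 to 132, and was above 0 only without C-exo replicate 3. Of the calls by the criterion, 21.1% were higher in R-exo with TMM, 54.5% with library size only, 42.9% without the filter, 32.4% with RLE, 34.7% with DESeq2 and 55.1% with limma-voom.

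The groups share replicate numbers in the labels, but same-numbered libraries come from different rats. Deviations from the group means correlated from -0.28 to 0.33 for the 3 numbers, and not every library correlated best with its own number. With the replicate number as a block the count of calls was again 38, with 65.8% higher in R-exo. miR-155-5p then had a log2 fold change of 1.31 (unadjusted p = 0.043, adjusted p = 0.46, edgeR) and met the criterion. No other arm changed its call.

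Depth limits the rare arms: miR-146a-3p had 19 to 40 reads per library and miR-155-3p at most 3.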

Other observations

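The order of the rarer arms changed between libraries, a comparison chosen after its values were seen. There were 0.338 and 0.431 reads of miR-155-5p per read of miR-146b-3p in C-exo replicates 1 and 2, so that the rarely loaded arm of miR-146b was the more frequent read. In C-exo replicate 3 the ratio was 2.04, and in R-exo replicates 1, 2 and 3 it was 2.37, 3.25 and 3.46, with miR-155-5p the more frequent. The 4 libraries with the higher ratio are the 3 R-exo libraries and C-exo replicate 3. miR-146b-3p exceeded miR-146a-3p in 6 of 6 libraries, by 2.0 to 5.68 reads per read, although miR-146a-5p exceeded miR-146b-5p in all 6.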
